A study of Mus musculus with 6 samples.

Results

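The 10 genes described here regulate or carry out the passage from G1 to S phase. They are the phosphatase gene Cdc25a, the replication licensing factors Cdc6 and Cdt1, the D-type cyclins Ccnd1 and Ccnd3, the E-type cyclins Ccne1 and Ccne2, the transcription factors E2f1 and E2f3, and the retinoblastoma gene Rb1. They were taken by symbol from the 23281 genes of the deposited table. Each symbol matched 1 row, and all 10 had the mean of at least 100 reads per library that was asked of a gene before its label was tested.

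In G1, D-type cyclins with CDK4 or CDK6 begin to phosphorylate the retinoblastoma protein, which otherwise binds E2F factors and represses their targets. Freed E2F activates genes of S phase, the E-type cyclins among them, and cyclin E with CDK2 completes the phosphorylation. Mouse embryonic stem cells are known for a short G1 phase, in which the retinoblastoma protein is largely phosphorylated and cyclin E activity varies little over the cycle.

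Nuclear RNA came from female embryonic stem cells of the 129S X Cast strain background, whose Xist gene is driven by a TetOn promoter on the 129S allele and carries a Bgl stem-loop at its 3' end. All cultures were given 1 µg/ml doxycycline, first alone for 17.5 to 20 h and then with 500 µM 4-thiouridine (4sU) for 4 h. The 0 min culture was collected at that point, and the others spent 30, 60, 90, 120 or 150 min in doxycycline with 50 mM uridine, 1 library per time. SLAM-seq reads the 4sU taken up by new RNA as T-to-C (T>C) conversions. Every library thus had doxycycline, and no library without doxycycline or without 4sU was analysed here.

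Libraries held 18558073 to 28535162 reads, and the time of each column was read from its name as described under the processing. The T>C rate over all genes ranged from 1.17% to 4.11%, with 2.69% in the 30 min library and 4.11% in the 60 min library, against 4.05% at 0 min. All 10 embryonic stem cell markers had reads in every library, at a summed 2898 to 3337 CPM (read counts scaled to library size). Of 12 fibroblast feeder markers 11 or 12 had reads in each library, at a summed 2864 to 4236 CPM. Of these Fn1 gave 2320 to 3554, while Postn reached at most 1.99 and Lum at most 0.185 CPM. The remaining feeder markers lay between these and are given with the D-type cyclins below. No time had a replicate, so every p-value rests on single libraries placed along time, and none measures the spread between cultures of the same time. The limma, edgeR and DESeq2 fits also draw on the variance of all genes. The p-values of gene pairs come from reordering the times.

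Sequences of the regions that could bear on synthesis and on stability are shown before the values. RefSeq promoters, from 250 bases before to 50 bases after a start site in GRCm38.p6, were held for 7 of the 10 genes and not for Ccnd1, Ccne2 and Rb1. The E2F motifs TTTCCCGC, TTTCGCGC, TTTGCCGC and TTTGGCGC were searched on both strands, and no matches overlapped. One match each was found for Cdc25a (bases -67 to -60 from the start site), Cdc6 (-138 to -131), Cdt1 (33 to 40) and the upstream start of E2f3 (-11 to -4). No match was found in the windows of Ccnd3, Ccne1, E2f1 or the downstream start of E2f3, which says only that these letters are not there. The windows of Cdc6 and E2f1, the downstream one of E2f3 and 1 of the 2 of Ccnd3 lie wholly inside the gene as GENCODE M21 annotates it, so the Cdc6 match is downstream of the annotated gene start. Of 32851 promoters of the same length, 2.3% held a match. The 4 windows with a match follow, with the motif in capitals.
Cdc25a, chr9:109875329-109875628, plus strand: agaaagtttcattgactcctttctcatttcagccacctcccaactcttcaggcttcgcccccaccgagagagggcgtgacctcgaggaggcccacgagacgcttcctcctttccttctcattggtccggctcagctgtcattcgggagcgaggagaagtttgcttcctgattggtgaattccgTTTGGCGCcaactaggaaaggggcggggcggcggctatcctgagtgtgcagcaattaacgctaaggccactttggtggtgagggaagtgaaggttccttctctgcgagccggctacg
Cdc6, chr11:98907901-98908200, plus strand: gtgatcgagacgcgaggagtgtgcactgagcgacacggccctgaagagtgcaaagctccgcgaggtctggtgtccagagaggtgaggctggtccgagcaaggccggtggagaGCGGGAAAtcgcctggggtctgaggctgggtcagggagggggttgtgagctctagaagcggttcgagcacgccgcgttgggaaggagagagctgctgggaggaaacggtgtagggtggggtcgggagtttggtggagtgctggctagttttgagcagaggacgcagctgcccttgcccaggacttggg
Cdt1, chr8:122567765-122568064, plus strand: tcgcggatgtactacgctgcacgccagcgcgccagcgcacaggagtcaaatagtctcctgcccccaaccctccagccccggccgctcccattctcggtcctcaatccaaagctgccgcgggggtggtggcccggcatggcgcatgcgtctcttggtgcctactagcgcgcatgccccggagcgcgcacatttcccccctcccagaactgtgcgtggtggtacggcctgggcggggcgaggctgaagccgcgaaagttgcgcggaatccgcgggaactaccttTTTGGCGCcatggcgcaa
E2f3, chr13:29986014-29986313, minus strand: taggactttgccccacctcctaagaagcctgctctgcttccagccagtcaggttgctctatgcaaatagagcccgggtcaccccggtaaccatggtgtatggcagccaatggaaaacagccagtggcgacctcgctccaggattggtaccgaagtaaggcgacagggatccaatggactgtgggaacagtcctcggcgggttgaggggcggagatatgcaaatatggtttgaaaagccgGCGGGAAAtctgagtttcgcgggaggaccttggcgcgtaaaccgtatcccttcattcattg

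AU-rich elements of 3' UTRs, which bind factors that speed or slow mRNA decay, were counted in the coding transcript with the longest 3' UTR in GENCODE M21. The nonamer TTATTTATT occurred at 1 site in Ccne2 and at 2 sites in E2f1, and at 0 sites in each of the other 8 genes. Over 11224 tested genes with a 3' UTR, 8.5% held it. The shorter pentamer ATTTA had its highest density in Rb1 (6.44 per kb) and Ccne2 (4.16 per kb), against a median of 1.37 per kb over those genes, and Ccne1 had none in 531 nt. The 3 nonamer sites are given as 30 bases each, with the nonamer in capitals and its first base counted from the start of the 3' UTR.
Ccne2, base 1028: tcctagaaatTTATTTATTtaaacttgctg
E2f1, base 637: aatggagcgtTTATTTATTtatcgaggcct
E2f1, base 771: cccaagcagtTTATTTATTgggaaagggag

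Label loss divided the 10 genes. The labelled share, the authors' posterior mean of the fraction of a gene's reads that carry 4sU, fell over the washout for 7 of 10 genes (E2f3, Cdc25a, Cdt1, Cdc6, Ccne2, E2f1 and Rb1), and the other 3, Ccne1, Ccnd3 and Ccnd1, did not pass in either direction. The test was the slope of the natural log of the share on time in limma, fitted over 11462 genes and called at a Benjamini-Hochberg adjusted p under 0.05. It called 52.3% of all genes as falling and 1.19% as rising. The share of the 10 genes that fell (70%) is therefore to be read against 52.3%. Their median rate of loss was 0.551 per h, beside 0.247 per h over all genes tested. At 0 min the median labelled share was 69.6% for the 10 genes and 46.8% for all genes, and at 150 min it was 15.7% and 21.1%.

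**Figure D1:**
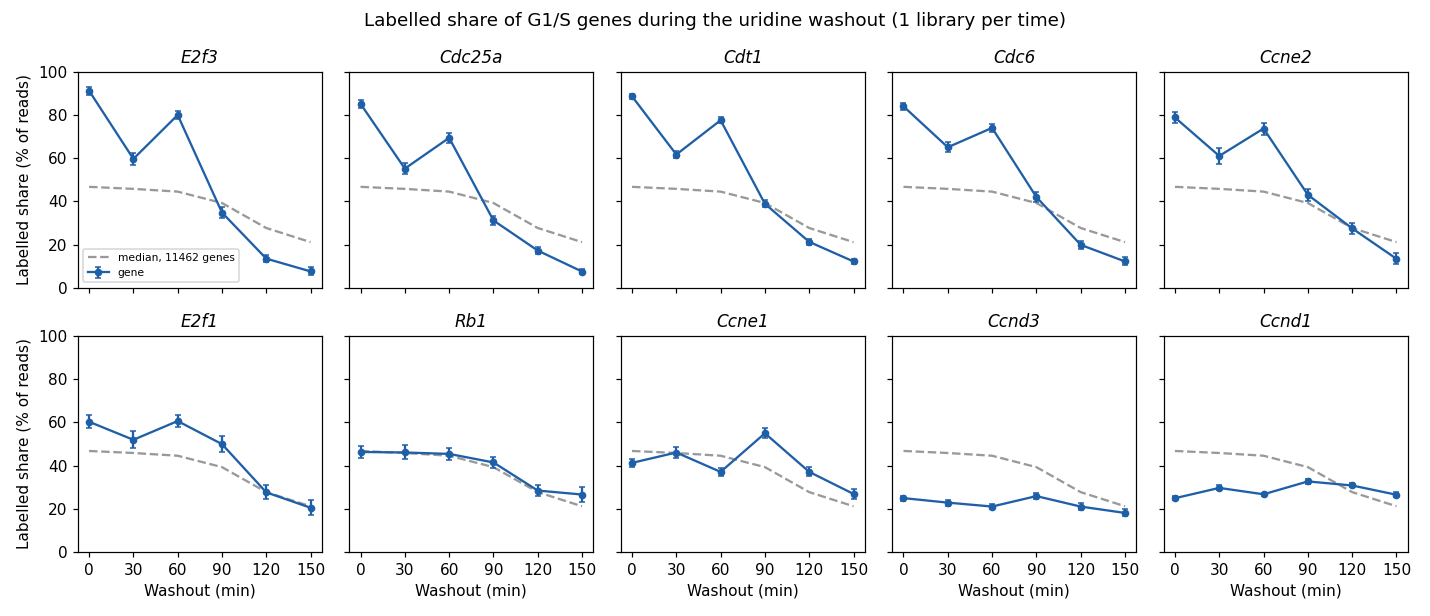
Labelled share (% of reads) against washout time (min) for each of the 10 genes, ordered by rate of loss; points are single libraries, bars the authors' 5% to 95% posterior range, and the dashed line the median of 11462 genes. The 5 genes of the upper row start between 78.9% and 91.3% and end between 7.52% and 13.4%, whereas Ccnd3 and Ccnd1 stay between 18.0% and 32.6%.

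The licensing factors lost label together. Cdc6, the ATPase that loads the MCM helicase onto origins (ENSMUSG00000017499, mm10 chromosome 11, 98907801 to 98923940, plus strand), had labelled shares of 84.0, 65.1, 74.1, 42.0, 19.9 and 12.2% at 0, 30, 60, 90, 120 and 150 min. Cdt1, its partner in loading and a protein destroyed in S phase (ENSMUSG00000006585, chromosome 8, 122568015 to 122573554, plus strand), had 88.7, 61.7, 77.6, 38.9, 21.3 and 12.2%. In both genes the 60 min library was higher than the 30 min library, and the 3 later libraries were lower than all earlier ones. The rate of loss was 0.787 ± 0.112 per h (SE) for Cdc6, which is a half-life of 52.8 min (46.3 to 61.6 min when the rate moves by 1 SE; limma adjusted p = 6.22e-05). For Cdt1 it was 0.789 ± 0.111 per h, or 52.7 min (46.2 to 61.3; limma adjusted p = 6.11e-05). With 1 library left out the rate ran from 0.664 to 0.933 per h for Cdc6 and from 0.664 to 0.908 for Cdt1. A half-life takes the loss as 1 constant rate, yet the 60 min shares were still 74.1% for Cdc6 and 77.6% for Cdt1. Because the RNA was nuclear, these half-lives describe loss of label from nuclei, in which decay and export were not told apart.

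Cdc6 and Cdt1 could not be separated from each other. Within each library the share of Cdt1 was 0.926 to 1.07 times that of Cdc6. The difference in rate, Cdc6 minus Cdt1, was -0.0021 per h with a 95% interval of -0.092 to 0.087 (exact permutation p = 0.95, adjusted p = 0.95 over the 4 pairs compared, two-sided). The interval leaves room for differences of that size in either direction.

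Cdc25a, the phosphatase that removes inhibitory phosphates from CDK2 at the G1/S boundary (ENSMUSG00000032477, chromosome 9, 109875579 to 109893895, plus strand), had labelled shares of 85.2, 55.2, 69.5, 31.2, 17.2 and 7.52% in time order. The last library held the lowest share of any of the 10 genes, with a posterior range of 6.26 to 8.89% that overlaps that of E2f3 (5.81 to 9.54%). The rate of loss of the share was 0.939 ± 0.119 per h, a half-life of 44.3 min (39.3 to 50.7; limma adjusted p = 5.12e-05). By share, 97.1% of all genes tested lost label more slowly. Total CPM of Cdc25a was 51.7 at 0 min and 102 at 150 min. The labelled part of its CPM fell more slowly than its share, at 0.675 ± 0.101 per h.

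The 2 E-type cyclins, both activators of CDK2, differed. Ccne2 (ENSMUSG00000028212, chromosome 4, 11191351 to 11204779, plus strand) had shares of 78.9, 61.1, 73.8, 43.1, 27.5 and 13.4% in time order. Ccne1 (ENSMUSG00000002068, chromosome 7, 38097984 to 38107534, minus strand) had 41.2, 46.0, 37.1, 54.9, 37.1 and 26.8%. Ccne2 was the more labelled of the pair in the first 3 libraries and the less labelled in the last 3, and Ccne1 was highest in the 90 min library. Ccne2 fell at 0.673 ± 0.112 per h, a half-life of 61.8 min (53.0 to 74.0; limma adjusted p = 0.000148). Ccne1 had a slope of 0.137 ± 0.102 per h that did not pass (limma adjusted p = 0.277), and that ran from 0.0073 without the 150 min library to 0.216 without the 0 min one. The share of Ccne2 divided by that of Ccne1 was 1.91, 1.33, 1.99, 0.784, 0.742 and 0.5 in time order. The rate of Ccne1 minus that of Ccne2 was -0.536 ± 0.135 per h (95% interval -0.912 to -0.16; exact permutation p = 0.025, adjusted p = 0.0408 over 4 pairs, two-sided). That call was lost without any library other than the 60 min one, with adjusted p from 0.0778 to 0.156 by exact permutation of 5 libraries, and on the logit scale (exact permutation adjusted p = 0.0519).

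The 2 E2F activators also differed. E2f3 (ENSMUSG00000016477, chromosome 13, 29906575 to 29986063, minus strand) had the highest share at 0 min of the 10 genes, 91.3%, followed by 59.7, 80.0, 34.8, 13.5 and 7.58%. E2f1 (ENSMUSG00000027490, chromosome 2, 154559407 to 154569892, minus strand), itself an E2F target, had 60.3, 51.9, 60.6, 49.9, 27.6 and 20.4%. E2f1 thus held its share within 49.9 to 60.6% up to 90 min, and E2f3 was below it in the 3 last libraries. E2f3 lost label at 1.01 ± 0.129 per h, a half-life of 41.0 min (36.4 to 47.0; limma adjusted p = 5.12e-05), the highest rate among the 10 genes and above 98.2% of all genes tested. E2f1 fell at 0.429 ± 0.103 per h, or 97.0 min (78.2 to 128; limma adjusted p = 0.00245), and did not pass without the 150 min library (limma adjusted p = 0.0688). The rate of E2f1 minus that of E2f3 was -0.585 ± 0.0904 per h (95% interval -0.836 to -0.334; exact permutation p = 0.00833, adjusted p = 0.0333 over 4 pairs, two-sided). The call too was lost without any library other than the 60 min one (exact permutation adjusted p from 0.05 to 0.156), with the same limit of fewer orderings. The difference stayed between -0.651 and -0.552 per h.

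Rb1, the pocket protein that holds E2F in check (ENSMUSG00000022105, chromosome 14, 73183673 to 73325822, minus strand, 142.2 kb with 27 exons), followed the median gene. Its shares were 46.3, 46.0, 45.4, 41.4, 28.4 and 26.6%, with medians over all genes of 46.8, 45.8, 44.5, 39.3, 27.7 and 21.1%. The first 3 libraries lay within 1 percentage point of each other, and the loss was in the later ones. The rate was 0.247 ± 0.0903 per h, a half-life of 169 min (123 to 266; limma adjusted p = 0.0305), and 49.9% of genes tested were slower. The call was lost without the 0, 30, 120 or 150 min library (limma adjusted p = 0.0514, 0.097, 0.155 and 0.194).

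The D-type cyclins, which carry mitogen signals to CDK4 and CDK6, were low in label from the start. Ccnd1 (ENSMUSG00000070348, chromosome 7, 144929931 to 144939925, minus strand) had 24.9, 29.6, 26.7, 32.6, 30.8 and 26.5%. Ccnd3 (ENSMUSG00000034165, chromosome 17, 47505051 to 47599691, plus strand) had 24.9, 22.8, 21.0, 25.8, 21.0 and 18.0%. Neither gene separated early from late libraries, and Ccnd1 was highest at 90 min. The rate of loss was -0.036 ± 0.089 per h for Ccnd1 (limma adjusted p = 0.768) and 0.095 ± 0.089 per h for Ccnd3 (limma adjusted p = 0.398), or 0.044 for Ccnd3 without the 150 min library. Within libraries the share of Ccnd3 divided by that of Ccnd1 was 1.00 at 0 min, 0.77 to 0.792 from 30 to 90 min and 0.682 and 0.681 at 120 and 150 min. The rate of Ccnd1 minus that of Ccnd3 was -0.13 ± 0.0376 per h (95% interval -0.235 to -0.026; exact permutation p = 0.0306, adjusted p = 0.0408 over 4 pairs, two-sided). This call was lost without any 1 of the 6 libraries (exact permutation adjusted p from 0.05 to 0.244) and on the logit scale (exact permutation adjusted p = 0.0519). With 1 library left out there are again fewer orderings, and the difference ran from -0.157 to -0.077 per h.

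Fibroblasts also express D-type cyclins, and the cultures were pre-plated to remove feeder cells. Fn1 made up most of the summed feeder markers given above, and Postn and Lum were near 0. The other feeder markers had reads in every library. S100a4 gave 145.3 to 213.5 CPM, Col1a2 103.2 to 163, Col5a1 104.7 to 144.5 and Col1a1 77.73 to 119.5. Thy1 gave 36.16 to 61.33, Col3a1 18.49 to 30.82, Dcn 12.53 to 19.76, Acta2 9.742 to 13.69 and Pdgfrb 5.604 to 7.676 CPM. The 10 feeder markers that could be tested had 7.55 to 34.0% labelled at 0 min, 0 of 10 fell by limma, and their median rate was -0.114 per h. Their part in the D-type cyclin values was not tested.

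**Figure D2:**
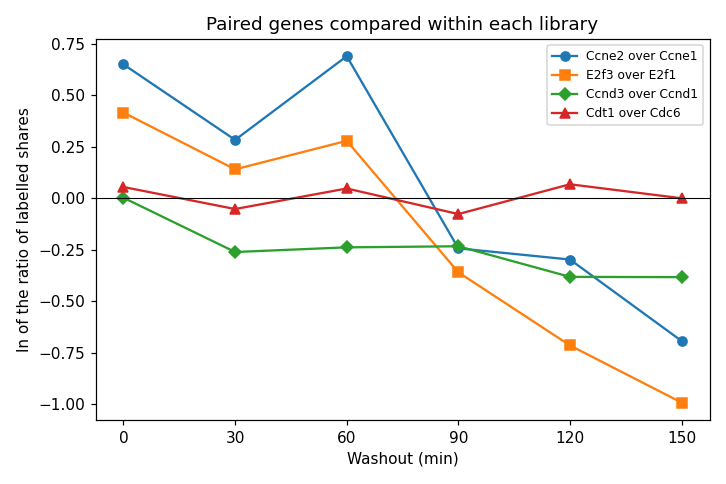
Natural log of the ratio of labelled shares of 2 genes within each library against washout time (min), 1 line per pair, with 0 marking equal shares. Ccne2 over Ccne1 and E2f3 over E2f1 lie above 0 up to 60 min and below 0 from 90 min, while Cdt1 over Cdc6 stays close to 0.

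In order of the rate of loss of the share the genes were E2f3, Cdc25a, Cdt1, Cdc6, Ccne2, E2f1, Rb1, Ccne1, Ccnd3 and Ccnd1. Neighbours overlapped at 1 SE in every case but 1, the step from Ccne2 (0.562 to 0.785 per h) to E2f1 (0.325 to 0.532 per h). The 4 genes with an E2F motif in a promoter window printed above were the first 4 in this order. Only 7 genes had a window, so Ccne2, Rb1 and Ccnd1 were not searched. The windows of Cdc6 and E2f1 lay wholly inside the annotated gene, so the sequence upstream of their annotated starts was not searched either. This is a description of 4 genes, and a link between motif and label loss was not tested.

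**Figure D3:**
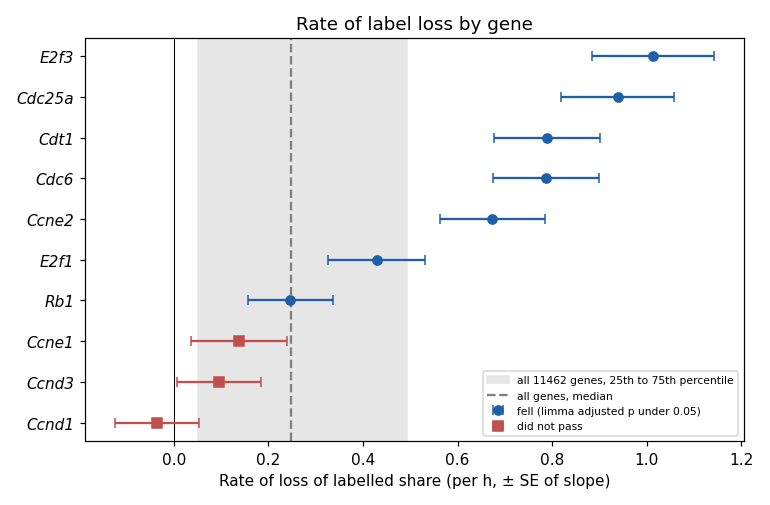
Rate of loss of the labelled share (per h) for each gene, with bars of 1 SE of the slope over 6 libraries; circles fell by limma at an adjusted p under 0.05, squares did not pass, and the grey band holds the middle 50% of 11462 genes. The 5 fastest genes lie to the right of the band, which ends at 0.493 per h.

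The raw T>C rate, conversions divided by covered T positions, does not rest on the authors' model of the labelled share. It fell for 8 of the 10 genes, the 7 above and Ccne1, and in 66.9% of 11459 genes by limma, with 0 genes rising (0% called, 0 at an unadjusted p under 0.05). E2f3 went from 9.57% (2537 conversions in 26500 covered positions) at 0 min to 0.499% (94 in 18840) at 150 min, and Cdc25a from 8.22% (2342 in 28480) to 0.474% (172 in 36300). Ccnd1 went from 2.22% (3679 in 165700) to 1.31% (1401 in 107100) and was highest at 60 min (2.88%). In all 10 genes the T>C rate was higher at 60 than at 30 min, whereas the labelled share was higher in 6 of 10 (E2f3, Cdc25a, Cdt1, Cdc6, Ccne2 and E2f1) and in 47.1% of all genes tested. In 6 of them (E2f1, Ccne1, Ccnd1, Ccnd3, Rb1 and Cdt1) it was also higher at 60 than at 0 min, in percentage points by the most in E2f1 (7.58 against 6.27%) and by the least in Cdt1 (9.30 against 9.28%).

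Rates from T>C were larger than rates from the share in all 10 genes. E2f3 had 1.21 ± 0.195 per h (half-life 34.4 min; limma adjusted p = 0.000153) and Rb1 0.512 ± 0.167 per h (81.2 min; limma adjusted p = 0.0109). The median over all genes was also larger, 0.512 per h against 0.247. For Ccne1 the rate was 0.437 ± 0.17 per h (95.1 min; limma adjusted p = 0.0281), not called without the 0, 120 or 150 min library (0.0665, 0.0933 and 0.406). Ccnd3, at 0.358 ± 0.166 per h (limma adjusted p = 0.0591), did not pass with all libraries but did when the 30 min (0.0369) or the 60 min library (0.00902) was left out, with a minimum of 300 reads (0.0494) and with the 30 and 60 min times exchanged (0.000259). In that last setting Ccnd1 passed as well (0.241 per h; limma adjusted p = 0.0324). Rb1 was not called without the 0, 120 or 150 min library (0.0529, 0.0637 and 0.151), nor E2f1 without the 150 min one (0.0831), and without it 5 of the 10 genes fell in place of 8.

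Total reads did not pass for any of the 10 genes. By edgeR's quasi-likelihood test 0 of 10 changed, with 3 at an unadjusted p under 0.05 (Cdc25a, Ccne1 and Ccne2), and 0 of 15743 genes changed overall (0% called in either direction, 3416 at an unadjusted p under 0.05). DESeq2 called 1 of the 10, Cdc25a, and 605 genes in all. Cdc25a had 51.7, 72.0, 44.8, 77.0, 90.9 and 102 CPM, scaled with TMM, in time order. The 3 last libraries were above the 3 first ones, and its slope was 0.37 ± 0.10 log2 per h (edgeR adjusted p = 0.104). It passed with DESeq2 (adjusted p = 0.0206), with no filter on low counts (edgeR adjusted p = 0.0346), with the 60 min library left out (0.0107) and with the 30 and 60 min times exchanged (0.0036). Ccne1 had 64.6 to 100 CPM (slope 0.17 ± 0.07, edgeR adjusted p = 0.199) and Ccne2 28.5 to 45.1 CPM (0.19 ± 0.08, 0.192), and both passed only with the times exchanged (0.0492 and 0.034). The slopes of the other 7 lay between -0.05 log2 per h (Ccnd3) and 0.12 (Ccnd1), with edgeR adjusted p from 0.425 to 0.95. CPM are relative values and do not show whether absolute levels were constant, and in bulk RNA fewer cells of a type and less RNA per cell cannot be told apart.

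Multiplying CPM by the labelled share splits each gene into RNA with and without label. E2f3 kept 50.5 to 56.4 CPM in total, while its labelled part was 46.1 CPM before the washout and 3.85 CPM at its end, and its unlabelled part 4.41 and 46.9. The unlabelled part at 150 min was 10.6 times that at 0 min. Cdt1 went from 108 to 18.2 labelled CPM and from 13.7 to 131 unlabelled. In Cdc25a the labelled part went from 44.1 to 7.64 CPM and the unlabelled part from 7.65 to 94.0, so that unlabelled RNA made up more than the whole 0 min level. Ccnd1 had 65.2 labelled CPM at 0 min and 74.0 at 150 min, with 114 at 120 min, and 161 to 256 unlabelled CPM. Rb1 was highest in the 90 min library in both parts (22.2 labelled and 31.4 unlabelled CPM, against 9.1 to 16.7 and 17.0 to 27.2 in the other libraries). Tested as labelled abundance, 6 of the 10 genes fell, beside 5407 genes in all, and Rb1 did not pass (limma adjusted p = 0.207). In that fit Cdc25a, at 0.675 per h, was slower than Cdt1 (0.751) and Cdc6 (0.763), the reverse of their order by share.

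**Figure D4:**
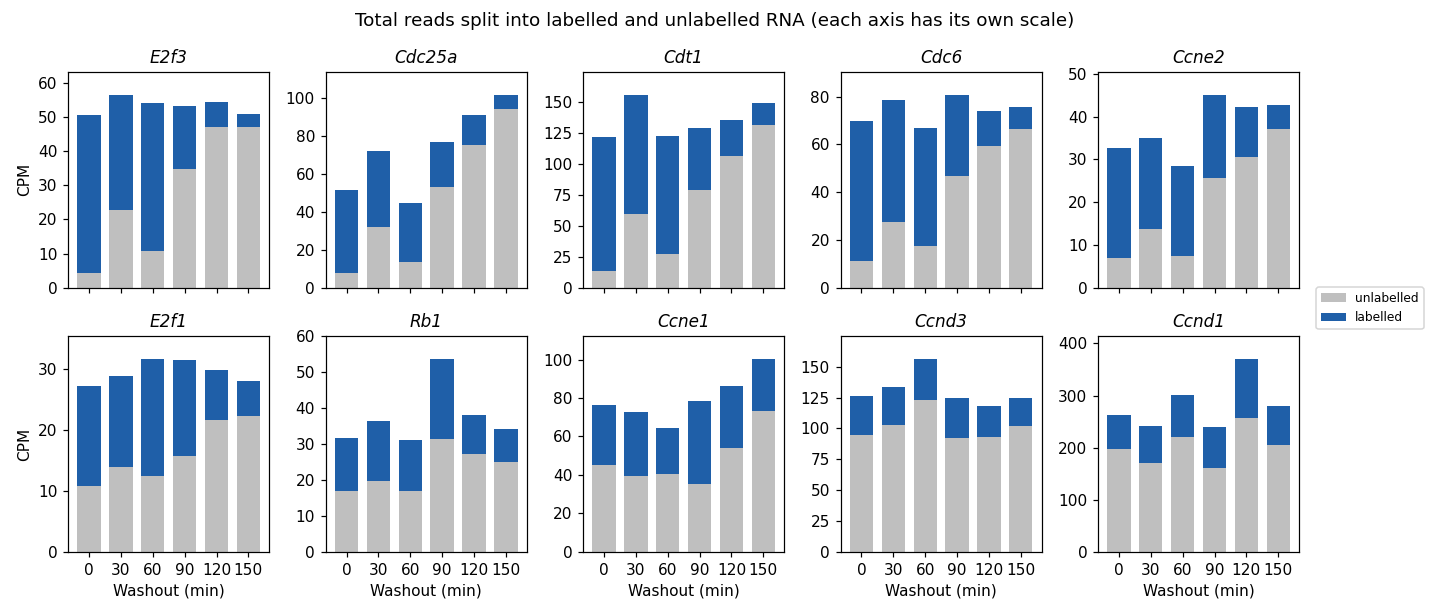
CPM of each gene by washout time (min), 1 bar per library, split into labelled (blue) and unlabelled (grey) RNA; each panel has its own scale from 0. E2f3 keeps 50.5 to 56.4 CPM while label is replaced, and Ccnd1 holds 161 to 256 unlabelled CPM throughout.

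Levels between genes were compared per length. As CPM per kb of deposited length (RPKM), the mean over the 6 libraries was 75.4 ± 12.5 (SD over times, n = 6) for Ccnd1, 50.2 ± 5.06 for Cdt1, 39.9 ± 5.96 for Ccne1 and 33.9 ± 3.55 for Ccnd3. Cdc25a had 19.4 ± 5.77, Cdc6 15.5 ± 1.18, Ccne2 12.6 ± 2.24, E2f1 10.7 ± 0.756, E2f3 10.4 ± 0.456 and Rb1 8.07 ± 1.9. The ranges of neighbours in this order overlapped, except between Ccnd1 and Cdt1 and between Ccnd3 and Cdc25a. The deposited length equalled the longest GENCODE M21 transcript in 10 of 10 genes, and for 4 of them (Cdc25a, Cdc6, Cdt1 and Ccnd3) that transcript is not a coding one. For Ccnd3 it is a retained-intron transcript of 3858 nt beside a longest coding one of 2113 nt, so that its level per length is understated against a coding length. The 3 genes whose label loss did not pass were among the 4 with the highest levels.

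Label taken up in 4 h gives an estimate of turnover from the 0 min library alone, with no test, which holds only if levels were constant. The half-life by this reckoning was 68.2 min for E2f3, 76.4 for Cdt1, 87.0 for Cdc25a, 90.7 for Cdc6, 107 for Ccne2, 180 for E2f1, 268 for Rb1, 313 for Ccne1, 581 for Ccnd3 and 582 for Ccnd1. It was longer than the washout half-life in each of the 7 genes that fell. Both estimates use the 0 min library.

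Other genes of the pathway were taken from lists of 73 genes, of which 72 could be tested. Of these, 40 fell and 0 rose by limma (55.6%, beside 52.3% of all genes), at a median rate of 0.273 per h. Among 7 CDK inhibitors 5 fell, from Cdkn1a (half-life 57.6 min) to Cdkn2c (145 min). Among 10 pocket proteins, other E2Fs and DP partners 7 fell, from the activator E2f2 (41.3 min; 91.5% labelled at 0 min and 7.13% at 150 min) to the p107 gene Rbl1 (169 min). Among 6 genes of the MuvB complex and B-Myb, which act with pocket proteins on cell cycle promoters, 4 fell, from Lin52 (34.3 min) to Lin54 (125 min).

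Of 11 origin licensing and firing genes 8 fell, beside 52.3% of all genes, from the kinase gene Cdc7 (54.0 min) to Orc6 (161 min). Of 11 ubiquitin ligase and APC/C genes 7 fell (63.6%), from the APC/C inhibitor gene Fbxo5 (36.2 min) to the cullin gene Cul4a (184 min). Of 8 genes in the list of other cyclins and CDKs 3 fell, from Cdk7 (86.8 min) to Cdk2 (141 min), and the median rate was 0.113 per h. That list also held Mnat1 (-0.051 per h), which is neither a cyclin nor a CDK gene. Cdk4, the partner of the D-type cyclins, had 0.117 per h and Ccnd2 0.087 per h, neither of which passed (limma adjusted p = 0.284 and 0.426), and both are named after their values were seen. Ccna1, with a mean of 16.8 reads, was not tested for label loss.

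Of 19 E2F target genes of S phase 6 fell (31.6%), from the histone mRNA binding protein gene Slbp (78.3 min) to the ribonucleotide reductase subunit gene Rrm2 (160 min), at a median rate of 0.105 per h. The 6 MCM helicase genes, singled out after their values were seen, gave 0 calls by limma, and their rates ran from -0.072 per h (Mcm6) to 0.127 per h (Mcm3). Total reads passed in edgeR for 0 of the 73 list genes, beside 0% of all genes.

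**Figure D5:**
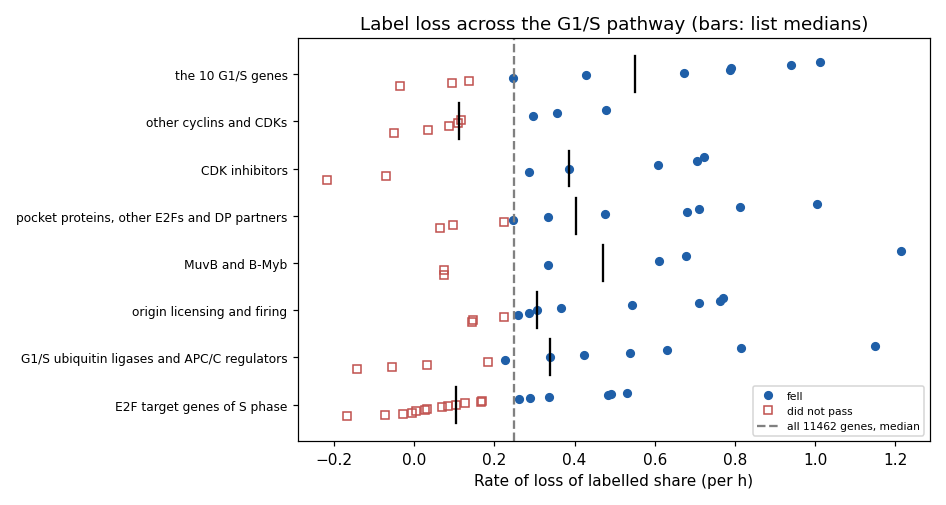
Rate of loss of the labelled share (per h) for the 10 genes and for 7 lists of other G1/S genes, 1 symbol per gene; filled circles fell by limma, open squares did not pass, black bars are list medians and the dashed line is the median of 11462 genes. The list medians run from 0.105 per h for E2F targets of S phase to 0.551 per h for the 10 genes.

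The gene outside the 10 whose log share came closest over the 6 libraries, by the root mean square difference of natural logs, was found for each of them among all 11462 genes. It was Pnrc2 for E2f3 (0.028), Nfkbia for Cdc25a (0.0396), Tsc22d1 for Cdt1 (0.0203), Fam126b for Cdc6 (0.0296) and Dhrs13 for Ccne2 (0.0319). For the slower genes it was Rxrb for E2f1 (0.0356), Snx29 for Rb1 (0.0387), Gripap1 for Ccne1 (0.0524), Mylpf for Ccnd3 (0.0493) and Myo18a for Ccnd1 (0.0396). The largest of these differences was that of Ccne1.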

How the data were processed

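The authors sequenced nuclear SLAM-seq libraries as paired ends of 81 nt and aligned them to mm10 with STAR 2.5.2b, per the submitters' processing notes. The deposited table gives read counts per gene, T>C conversion and T coverage counts (to 4 significant digits), a posterior fraction of labelled reads (mean, mode, 5% and 95% quantiles) and a length, per the file headers. The sources used here do not name its program, annotation or use of strand. Overlapping and antisense genes may thus share reads. Columns were matched to times through the prefixes of their names (none, 3, 6, 9, 12 and 15), which is an inference. The 10 genes, the lists, the pairs and the tests were chosen with earlier results of these data known.

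Slopes of the natural log of the share and of the T>C rate on time in h were fitted with limma 3.58.1 over genes averaging 100 reads or more per library, and total reads with edgeR 4.0.16 (quasi-likelihood, TMM). DESeq2 1.42.0 was an alternative. The smallest p that the 720 orderings of 6 libraries can give in the exact permutation test of a pair is 0.00278. It is larger with 5 libraries, so a pair's call can be lost there though the difference holds. From each list the fastest and the slowest gene that fell were named. Library totals were 28535162, 20664103, 26072700, 21638379, 26056531 and 18558073 reads at 0, 30, 60, 90, 120 and 150 min, and the 10 genes had means of 697 (E2f1) to 6716 reads (Ccnd1). On simulated data the share test found 82 of 100 genes given a 60 min half-life and 16 of 100 given 120 min, and called 4 of 11262 unchanged genes (11462 genes in all). The test of total reads found 103 of 200 genes with a 2-fold change over 150 min and called 9 of 15543 unchanged ones (15743 in all). Few genes changed in these simulations, whereas 52.3% of genes lost label in the data. Noise was drawn for each gene apart, so shifts shared by a whole library were not simulated. These counts therefore do not tell how many true or false calls the fits to the data hold. Alternatives changed the read minimum, the weights, the scale, the scaling of reads, the tool, the times of the 30 and 60 min libraries, or left out 1 library.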

Additional observations from a re-analysis of the deposited data

How the results depend on the processing

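The count of genes losing label stayed between 5 and 8 of 10 over 14 alternatives, and 5 to 7 with 1 library left out. It moved with the count over all genes, which was 5996 in the main fit. That count was lowest without the 150 min library (3582, with 5 of 10) and highest for the raw T>C rate (7664, with 8 of 10). Rb1 was not called with no read minimum (limma adjusted p = 0.0599). The rate of Ccnd1, not called in any of these 14 alternatives, changed sign without the 0 min library (0.0168 per h; -0.104 to 0.0168 with 1 library left out) and as a raw T>C rate (0.204 per h). That of Ccne1, called among them only as a raw T>C rate (limma adjusted p = 0.0281), was 0.02 per h as labelled abundance. For T>C the count was 5 to 9 with 1 library left out, the 5 being without the 150 min library, where 2705 genes were called in place of 7664. Total reads gave 1 call with DESeq2 (605 genes in all), 1 with no filter on low counts (399), 3 with the 30 and 60 min times exchanged (2885), and 0 to 1 with 1 library left out, the 1 being without the 60 min library (1413). With 1 library left out the slope of total reads ran from -0.034 to 0.083 log2 per h for E2f1, below 0 without the 0 min library (-0.034). For E2f3 it ran from -0.0596 to 0.025, above 0 without the 30 min (0.022) and the 150 min library (0.025). Slopes not called in any of these fits also moved widely, from 0.089 to 0.264 for Ccne1, 0.034 to 0.205 for Ccnd1, 0.023 to 0.235 for Rb1, 0.0012 to 0.126 for Cdt1, 0.0047 to 0.072 for Cdc6 and -0.124 to -0.029 for Ccnd3. Of the 4 pairs, 3 were called with all libraries, 1 on the logit scale, and 0 to 2 with 1 library left out, and Cdc6 minus Cdt1 ran from -0.017 to 0.025 per h. The other 3 differences kept their sign with 1 library left out: -0.588 to -0.484 per h for the E-type cyclins, -0.157 to -0.077 for the D-type cyclins and -0.651 to -0.552 for the E2Fs. Genes were paired within libraries, but replicate cultures could not be compared or paired because there was a single library at every time.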
